A study of Rattus norvegicus with 232 samples.

Results

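The 10 genes described here carry signalling by acetylcholine in the brain: the muscarinic receptors M1 to M5 (Chrm1, Chrm2, Chrm3, Chrm4 and Chrm5), the genes with which a neuron makes, loads and recovers the transmitter (Chat, Slc18a3 and Slc5a7), and the esterases that break it down (Ache and Bche). They were chosen by name, with earlier results of these data known, and all 10 were found among the 20859 genes of the RefSeq gene table, whose level, strain effect, co-variation over animals and extreme strains are given below.

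RNA was measured by sequencing of libraries depleted of ribosomal RNA from the brains of untreated rats, labelled as whole brain, of which the study's methods say that a single side of a brain split sagittally was used. From the Hybrid Rat Diversity Panel, a collection of inbred rats, the table holds 214 libraries of 197 animals and 74 strains. The strains fall into the HXB/BXH recombinant inbred family (30 strains, descended from SHR/OlaIpcv and BN-Lx/Cub), the FXLE/LEXF recombinant inbred family (19 strains, descended from F344/Stm and LE/Stm) and 25 classic inbred strains, among them these progenitors. The series' design text describes the rats as males naive to alcohol and drugs. No group carried a transgene or a treatment, and age is not given in the labels. Libraries with the same strain and replicate number were averaged to a single animal, which left 54 strains with 3 animals, 15 with 2 and 5 with 1. Tests of strain used the 192 animals of the 69 strains with 2 or more animals. Animals of an inbred strain are near-identical in genotype, so that differences among them are not genetic by design.

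Values are on the authors' log2 scale and are not divided by gene length, so that levels are compared between strains and animals for each gene and never between genes. Sequencing depth cannot be read from these values and is unknown here, and library medians lay between 8.18 and 8.42. In the 3 animals of LEW/Crl and in animal 2 of HXB17/Ipcv the Y-linked gene Kdm5d stood at 9.32 to 9.64 on the log2 scale, against 10.2 or more in all other animals, although the series is described as male. The mean of 10 liver genes was 17.9 in the 1 animal of LE/Stm, against at most 12.9 elsewhere. In tissue of mixed cells, fewer cells of a type and less RNA per cell cannot be told apart.

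Acetylcholine is made from choline and acetyl-CoA by choline acetyltransferase, the product of Chat. It is packed into synaptic vesicles by the vesicular transporter encoded by Slc18a3, and the choline released when acetylcholinesterase (Ache) splits it is taken up again by the transporter encoded by Slc5a7. The neurons that do this are few and lie apart: in the basal forebrain, in the striatum as interneurons, in the pontine tegmentum and in the motor nuclei of the brainstem. Muscarinic receptors are far more widespread. M1, M3 and M5 couple to Gq proteins and phospholipase C, M2 and M4 couple to Gi/o proteins and lower cyclic AMP, M1 and M4 are known as forebrain receptors of cortex, hippocampus and striatum, and M2 is known as a presynaptic autoreceptor and as a receptor of brainstem and thalamus. Butyrylcholinesterase (Bche) is a second, less selective esterase, known in brain from glia and some neurons.

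In the authors' reconstruction on the rn6 genome, Chat spanned chr16:8532610-8682158 and Slc18a3 spanned chr16:8682669-8685529, both on the minus strand. In the RefSeq table Slc18a3 lies within Chat, an arrangement known as the cholinergic gene locus, so that reads of the shared region could be assigned to either gene and their separate values are uncertain to that extent. Chrm1 lay at chr1:224798277-224893642, Chrm2 at chr4:64025220-64101362, Chrm4 at chr3:80764778-80841006, Chrm5 at chr3:103966451-104018861, Slc5a7 at chr9:5294381-5330815, Ache at chr12:22453219-22478753 and Bche at chr2:171100140-171196395 of rn6, each as the full span of its reconstructed transcripts. Promoters are shown for the 2 pairs of genes that moved together most closely in the results below. Each is 250 bases before and 50 bases after the gene's start, from RefSeq on the GRCr8 build and written along the strand of the gene, with the GC box GGGCGG of Sp-family factors (either strand) in capitals.
Chat (chr16:7723367-7723666, minus strand): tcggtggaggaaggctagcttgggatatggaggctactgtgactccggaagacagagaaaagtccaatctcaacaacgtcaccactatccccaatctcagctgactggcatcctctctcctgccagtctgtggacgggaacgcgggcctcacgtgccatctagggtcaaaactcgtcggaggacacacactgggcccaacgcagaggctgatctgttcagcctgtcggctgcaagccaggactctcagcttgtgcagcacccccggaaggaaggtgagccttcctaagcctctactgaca
Slc18a3 (chr16:7722765-7723064, minus strand): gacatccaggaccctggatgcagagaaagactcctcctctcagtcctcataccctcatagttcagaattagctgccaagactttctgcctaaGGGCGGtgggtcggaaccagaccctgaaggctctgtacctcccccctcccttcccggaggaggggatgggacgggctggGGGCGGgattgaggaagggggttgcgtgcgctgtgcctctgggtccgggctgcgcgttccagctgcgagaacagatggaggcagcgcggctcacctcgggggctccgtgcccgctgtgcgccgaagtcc
Chrm1 (chr1:214996109-214996408, plus strand): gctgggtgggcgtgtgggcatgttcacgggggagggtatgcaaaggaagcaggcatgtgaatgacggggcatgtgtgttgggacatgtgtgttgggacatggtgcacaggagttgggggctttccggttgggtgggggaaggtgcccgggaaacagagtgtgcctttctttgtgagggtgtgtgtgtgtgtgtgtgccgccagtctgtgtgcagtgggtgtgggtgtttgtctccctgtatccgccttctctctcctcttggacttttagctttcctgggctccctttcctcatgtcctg
Chrm4 (chr3:98348830-98349129, plus strand): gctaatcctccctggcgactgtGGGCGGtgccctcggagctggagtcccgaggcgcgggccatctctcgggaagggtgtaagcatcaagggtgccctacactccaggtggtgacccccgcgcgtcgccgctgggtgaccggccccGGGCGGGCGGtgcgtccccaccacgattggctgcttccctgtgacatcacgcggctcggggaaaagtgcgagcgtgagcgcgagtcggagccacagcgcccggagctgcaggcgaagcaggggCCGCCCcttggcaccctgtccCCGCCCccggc
The promoter of Slc18a3 holds the GC box 2 times and that of Chrm4 holds it 5 times, with overlapping matches counted singly, while those of Chat and Chrm1 hold none. Of the 9 members with a promoter in the table, 6 hold the GC box, which 33.1% of all 33469 promoters of this length hold. GC content was 57.3% for Chat, 64.3% for Slc18a3, 57.7% for Chrm1 and 72.0% for Chrm4, against a median of 51.7% over all promoters. The E-box CANNTG, which 72.1% of all promoters hold, was found 2 times each in Chat and Slc18a3, 3 times in Chrm1 and once in Chrm4. The cyclic AMP response element TGACGTCA, the TATA box TATAAA and the homeodomain motif TAATTA were absent from these 4 windows and are held by 1.83%, 14.2% and 5.36% of all promoters. The motifs are matches of letters only, and the members of a pair did not share a GC box in either case.

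The first comparison asked how far the strain of an animal accounts for the level of each gene. Chrm3 and Bche differed among strains, and the other 8 genes did not pass the test: strain accounted for 0.491 of the sum of squares of Chrm3 (adjusted p = 0.0176, moderated F-test of limma) and for 0.462 of that of Bche (adjusted p = 0.0375). This is 2 of 10 members, where 36.8% of all genes were called in the same test, and the median R2 was 0.420 over the members and 0.434 over all genes. With 69 strains and 192 animals an R2 of 35.6% is expected where strain has no effect. R2 was 0.443 for Chrm1 (adjusted p = 0.0721), 0.440 for Chrm4 (0.0818), 0.422 for Slc5a7 (0.134), 0.417 for Slc18a3 (0.148) and 0.417 for Chrm2 (0.162). It was 0.405 for Ache (0.206), 0.393 for Chrm5 (0.285) and 0.384 for Chat (0.315), the lowest of the 10. With sequencing batch as a covariate 7 members were called (Chrm1, Chrm3, Chrm4, Slc18a3, Slc5a7, Ache and Bche), where the background rose to 57.3% of all genes. With the batch of the title in its place 6 members were called, where 46.2% of all genes were: Chat was gained (adjusted p = 0.0427), and Chrm4 (0.0521) and Slc5a7 (0.109) were not called. Chrm2 and Chrm5 were called in none of these fits. Without the animals of replicate 1 both calls were lost (adjusted p = 0.441 for Chrm3 and 0.337 for Bche), where 15.7% of all genes were called. Without those of replicate 2 Bche was lost (0.311, with 14.9% of all genes called), and without those of replicate 3 Chrm3 was lost (0.233, with 29.3%). These fits rest on 116, 117 and 124 animals. The v7.1 reconstructed table, in which Chrm3 and Slc18a3 were not analysed here, called Chrm1 (0.0302) and Chrm4 (0.0229) and not Bche (0.0574), where 20.6% of all genes were called. In that table Chrm1 and Ache are split into separate entries, of which that with the higher mean was used.

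**Figure D1:**
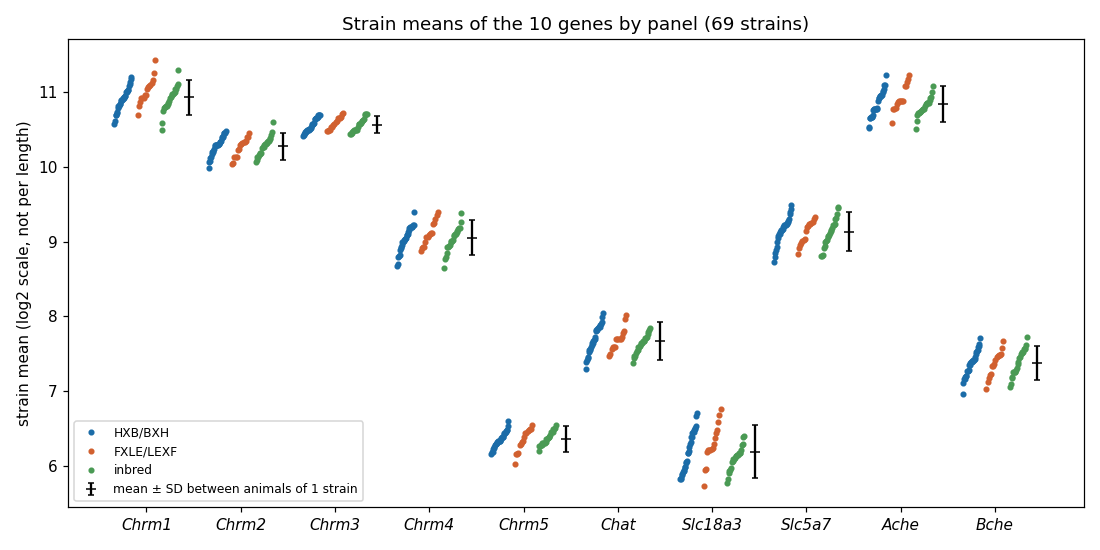
Strain means of the 10 genes on the authors' log2 scale (y axis, not per length), each point a strain of the HXB/BXH family, the FXLE/LEXF family or the classic inbred strains, sorted within its group. The black bar is the mean ± the SD between animals of a strain, and the clouds of the 3 groups of strains overlap for each gene, with a spread of strain means from an SD of 0.088 for Chrm3 to 0.246 for Slc18a3.

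Among the receptors, Chrm1 ranged over animals from 9.98 through a median of 10.94 to 11.67 on the log2 scale. Its lowest strain mean was that of BN-Lx/Cub, whose animals stood at 9.98, 11.01 and 10.49, and its highest that of LEXF5/Stm, with animals at 11.31 and 11.54. The difference of these strain means was 0.937, a fold of 1.91, against an SD of 0.236 between animals of a strain. These strains share no sequencing batch by their labels, nor do the HXB/BXH and FXLE/LEXF families. Differences of strain means between such groups hold batch as well as strain. Only 7 other strains had an animal as high as the lower animal of LEXF5/Stm, whereas 62 other strains had an animal as low as the highest of BN-Lx/Cub, whose 3 animals spread widely.

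Chrm4, the M4 receptor, ranged from 8.13 through 9.07 to 9.74. BN-Lx/Cub was again lowest, with animals at 8.13, 9.09 and 8.74, and LEXF1C/Stm was highest, at 9.26 and 9.55. The strain means differed by 0.753, or 1.69-fold, with an SD of 0.234 within strains. In both receptors the low mean of BN-Lx/Cub rests on animal 1, which was the lowest of all 197 animals for Chrm1 and Chrm4. Without it the mean of BN-Lx/Cub was 10.75 for Chrm1 and 8.91 for Chrm4, the 9th and the 12th lowest of the 69 strains.

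Chrm2 ranged from 9.73 through 10.28 to 10.81, from a strain mean of 9.985 in HXB22/Ipcv (9.91, 9.89 and 10.16) to 10.60 in MWF/Hsd (10.69, 10.42 and 10.67), a fold of 1.53. Chrm3 had the narrowest range, from 10.19 through 10.58 to 10.90, and its strain means ran from 10.42 in HXB10/Ipcv (10.43 and 10.41) to 10.72 in LEXF10A/Stm (10.75, 10.73 and 10.68), a fold of 1.23. The SD of Chrm3 within strains was 0.110, and these 2 strains were picked as its extremes, so that their distance is no test of strain. Chrm5 ranged from 5.79 through 6.38 to 6.79, from a mean of 6.02 in LEXF1C/Stm (5.87 and 6.17) to 6.59 in BXH2/Cub (6.61, 6.79 and 6.38), a fold of 1.49. Strain means of Chrm3 were the only ones among the 10 genes for which a mixture of 2 normal clusters described the means better than 1, with 38 and 31 strains around 10.50 and 10.65. Of all genes, 8.99% had more than 1 cluster, and without the animals of replicate 2 no member had.

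Of the genes of the cholinergic neuron, Chat ranged over animals from 7.09 through a median of 7.66 to 8.27. It was lowest in HXB27/Ipcv, with animals at 7.39, 7.28 and 7.21, and highest in HXB29/Ipcv, at 8.17, 7.93 and 8.02, a fold of 1.68. Slc18a3 was the most variable member, from 5.25 through 6.17 to 7.175 over animals, with an SD of 0.354 within strains and a fold of 2.05 between LEXF10A/Stm (5.92, 5.80 and 5.47) and LEXF5/Stm (6.35 and 7.175). The animals of LEXF5/Stm lay far apart, and 45 other strains had an animal as high as the lower of them. Slc5a7 ranged from 8.43 through 9.14 to 9.74, from 8.72 in HXB22/Ipcv (8.51, 8.60 and 9.055) to 9.50 in HXB29/Ipcv (9.59, 9.37 and 9.53), a fold of 1.71.

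Ache ranged from 10.05 through 10.85 to 11.41 over animals, and its strain means differed 1.65-fold between BN-Lx/Cub (10.13, 10.83 and 10.56) and LEXF5/Stm (11.05 and 11.41). Bche ranged from 6.61 through 7.42 to 7.98. It was lowest in HXB1/Ipcv, with animals at 6.78, 7.03 and 7.06, and highest in LH/MavRrrc, whose animals stood at 7.71, 7.73 and 7.74, a fold of 1.71 between means of 6.96 and 7.73. Only 12 other strains had an animal as high as the lowest of LH/MavRrrc.

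Some strains stood among the extremes of several genes. BN-Lx/Cub was among the 3 lowest strains for Chrm1, Chrm4, Chat, Slc18a3 and Ache and among the 3 highest for Chrm2. Without its animal 1 it was the 3rd lowest of 69 for Chat, the 7th for Slc18a3, the 10th for Ache and the 37th for Chrm2, so that of these places only that of Chat was kept. LEXF1C/Stm, with 2 animals, was among the 3 highest for Chrm1, Chrm4, Slc18a3 and Ache and among the 3 lowest for Chrm2 and Chrm5. HXB29/Ipcv was among the 3 highest for each of the 4 genes Chat, Slc18a3, Slc5a7 and Ache and for no receptor. Strain means of Chat, Slc18a3 and Ache went together (r of 0.767 to 0.847), so that these places are not independent. None of the 4 genes passed the test of strain without a covariate. In the order of strain means, no step between neighbouring strains exceeded the SD within strains in any of the 10 genes (68 steps each), and the largest was 0.130 for Chrm5, against an SD of 0.171.

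Within the 30 strains of the HXB/BXH family (88 animals) Chrm4 (R2 = 0.507, adjusted p = 0.0357) and Bche (R2 = 0.502, adjusted p = 0.0408) differed among strains by the F-test of limma, where 19.1% of all genes were called. Strain means of Chrm4 in this family ran from 8.67 in HXB23/Ipcv (9.07, 8.40 and 8.55) to 9.39 in BXH13/Cub (9.34, 9.36 and 9.48). Those of Bche ran from 6.96 in HXB1/Ipcv to 7.71 in HXB24/Ipcv (7.62, 7.63 and 7.87). Both calls were lost when the animals of replicate 1, 2 or 3 were left out, where 8.3%, 9.12% and 8.2% of all genes were called. The call of Bche was also lost without animal 2 of HXB17/Ipcv (18.7% of all genes). With batch as a covariate 5 members were called in the family (Chrm4, Chat, Slc18a3, Ache and Bche), where 32.1% of all genes were. In the FXLE/LEXF family (16 strains, 40 animals) no member was called where 5.00% of all genes were, while Chrm1 was called without replicate 3 (8.54% of all genes) and Chrm2, Chat and Slc5a7 in the v6 table (15.5% of all genes). In the classic inbred strains (23 strains, 64 animals) no member was called where 18.6% were. By limma the smallest adjusted p of a member there was 0.134 for Chrm5 in FXLE/LEXF and 0.130 for Slc5a7 in the classic strains.

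The family was set beside its progenitors. For Chrm1, 29 of the 30 recombinant strains lay above both SHR/OlaIpcv (10.59) and BN-Lx/Cub (10.49), and for Chrm4 28 did (8.77 and 8.65). For Ache 22 of 30 lay above both progenitors and none below both. The other way, 17 of 30 lay below both and 1 above both for Chrm2, and 13 below and 7 above for Bche. For Chat 16 of 30 lay between the progenitors, at 7.72 in SHR/OlaIpcv and 7.37 in BN-Lx/Cub. These counts rest on progenitor means of 2 and 3 animals, and their like over all genes was not computed. For Chrm1 the repeat libraries of SHR/OlaIpcv animal 1 ran from 10.17 to 11.13, and the recombinant strain means from 10.58 to 11.21. Animal 4 of SHR/OlaIpcv was sequenced in batches 15 to 20 by title, which hold no HXB/BXH library. Without animal 1 of BN-Lx/Cub, a setting chosen after seeing the data, 24 strains lay above both and 1 below both for Chrm1, 23 and 2 for Chrm4, 22 and 7 for Ache, 13 and 2 for Chat, 13 and 16 for Chrm2 and 17 and 11 for Bche.

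The next comparison set named strains side by side. No member passed 5% FDR in limma in any of 4 contrasts, and none had an unadjusted p under 0.05. The background was 4.51% of all genes for SHR/OlaIpcv minus BN-Lx/Cub, 0.796% for F344/Stm minus LE/Stm, 0.825% for the hypertensive SHR/OlaIpcv minus its normotensive control strain WKY/NCrl and 0.988% for the Dahl salt-sensitive SS/JrHsd minus the salt-resistant SR/JrHsd. Chat had the smallest p between SHR/OlaIpcv (7.80 and 7.65) and BN-Lx/Cub (7.29, 7.395 and 7.43), with a difference of 0.353 and an SE of 0.231 on the log2 scale (adjusted p = 0.419). Over the alternatives this difference of Chat ran from 0.0883 to 0.618 and never passed. Slc5a7 had the smallest p between SS/JrHsd (9.32, 9.26 and 9.10) and SR/JrHsd (8.43, 9.16 and 8.87), with a difference of 0.405 and an SE of 0.209 (adjusted p = 0.512). That difference ran from 0.163 to 0.613 over the alternatives and never passed. Chrm1 was lower in both animals of SHR/OlaIpcv (10.72 and 10.46) than in 2 of 3 animals of WKY/NCrl (11.07, 11.05 and 10.67), a difference of -0.338 with an SE of 0.213 (adjusted p = 0.735). In the v7.1 reconstructed table this difference of Chrm1 was -1.18 and passed (adjusted p = 0.03, limma). Chrm1 is split there, and the value is that of its entry with the higher mean, a part of the gene. The contrasts of SHR/OlaIpcv share its animals, and the 1 animal of LE/Stm was taken to vary like those of other strains and is the animal with high liver genes. By the study's methods, brains of SHR/OlaIpcv and BN-Lx/Cub came from a colony in Prague in liquid nitrogen. Those of the other classic strains in that study, WKY/NCrl among them, came from rats of commercial breeders and went into RNAlater. Classic strains outside that study are not covered by these methods. In the contrast with WKY/NCrl strain, colony and tissue handling cannot be told apart.

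The next comparison took strain out: for each animal the mean of its strain was subtracted, and the genes were compared over the 192 deviations. Chat rose and fell with Slc18a3, Ache and Slc5a7. On the log2 scale Slc18a3 moved by 1.09 per unit of Chat (SE 0.0761, r = 0.788, adjusted p = 2.62e-24, limma), Ache by 0.688 (SE 0.0570, r = 0.736, adjusted p = 2.75e-19) and Slc5a7 by 0.605 (SE 0.0723, r = 0.600, adjusted p = 3.2e-11). Chrm2 followed weakly (r = 0.222, adjusted p = 0.0343), and Chrm3 went the other way (r = -0.221, adjusted p = 0.0387). The call of Chrm3 was lost with batch as a covariate (adjusted p = 0.108) and without replicate 1, 2 or 3 (0.153, 0.154 and 0.4), and Chrm2 had r = -0.0102 without replicate 2 and was lost without replicate 1 (0.261). By group of strains r with Chat was 0.411 in HXB/BXH, 0.425 in FXLE/LEXF and -0.185 in the classic inbred strains for Chrm2, and -0.435, 0.0921 and -0.0718 for Chrm3, and whether the groups differ was not tested. The receptors Chrm1, Chrm4 and Chrm5 (r of 0.124, 0.120 and 0.109) and Bche (r = -0.0381) did not pass. In the v7.1 reconstructed table Chrm1 (r = 0.321), Chrm4 (0.305) and Chrm5 (0.300) were called with Chat, and without replicate 2 so was Chrm4 (0.307). Members thus called were 4 of 9 in the positive direction, against 20.9% of all genes, and 1 of 9 in the negative direction, against 18.9%.

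With Chrm1, Chrm4 moved by 0.869 per unit of Chrm1 (SE 0.0439, r = 0.874, adjusted p = 6.23e-38, limma), the closest link among all 45 pairs of members. Ache (r = 0.509, adjusted p = 3.49e-09), Chrm3 (r = 0.430, adjusted p = 2.05e-06) and Slc18a3 (r = 0.238, adjusted p = 0.0118) also rose with Chrm1. Chrm2 (r = -0.660, adjusted p = 4.16e-16), Bche (r = -0.598, adjusted p = 6.51e-13), Slc5a7 (r = -0.440, adjusted p = 6.09e-07) and Chrm5 (r = -0.212, adjusted p = 0.0277) fell as Chrm1 rose, and Chat (r = 0.124) did not pass. These are 4 of 9 members in each direction, where 33.4% of all genes were called positive and 31.1% negative. The call of Slc18a3 was lost without replicate 1 (r = 0.0438), with the batch of the title (0.189) and with libraries centred on their own median (0.161). That of Chrm5 was lost without replicate 1, 2 or 3 (-0.219, -0.156 and -0.247) and in the v7.1 reconstructed table (-0.052), where Slc5a7 was lost too (-0.118). Chat was called without replicate 2 (0.283) and in the v7.1 reconstructed table (0.321). With batch as a covariate r was 0.866 for Chrm4 and -0.650 for Chrm2. By group of strains r with Chrm1 was 0.00658 in HXB/BXH, -0.0538 in FXLE/LEXF and -0.503 in the classic inbred strains for Chrm5. In the same order it was 0.111, 0.0393 and 0.499 for Slc18a3 and -0.0233, 0.0306 and 0.365 for Chat. Whether the groups differ was not tested.

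**Figure D2:**
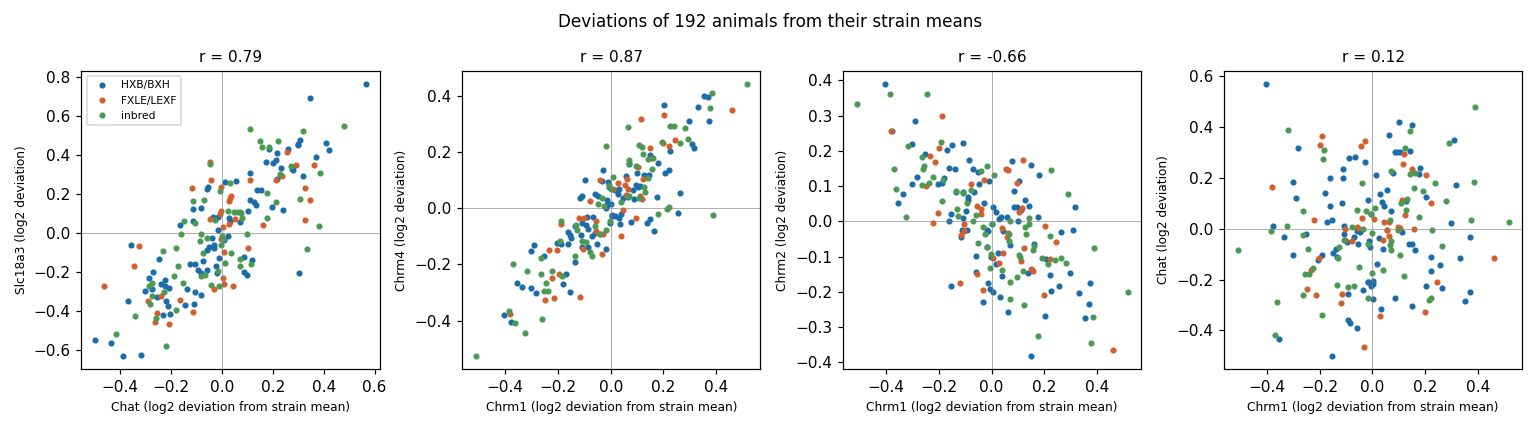
Deviations of 192 animals from their strain means on the log2 scale for 4 pairs of genes, coloured by group of strains. Slc18a3 against Chat (r = 0.788) and Chrm4 against Chrm1 (r = 0.874) rise along a line in all groups, and Chrm2 falls with Chrm1 (r = -0.660). Chat against Chrm1 has r = 0.124 over all animals, with -0.0233 in HXB/BXH, 0.0306 in FXLE/LEXF and 0.365 in the classic inbred strains.

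Over all 45 pairs of members, r of the deviations was at least 0.4 in 15 and at most -0.4 in 6, where 8.15% and 7.45% of all pairs of the 20859 genes were. Besides the pairs named, Slc18a3 and Ache had r = 0.767 (Spearman's rho = 0.758), Chrm2 and Bche r = 0.737 (rho = 0.716), Chrm2 and Slc5a7 r = 0.672 (rho = 0.660), and Chrm5 and Bche r = 0.493 (rho = 0.461). Spearman's rho was 0.773 for Chat and Slc18a3 and 0.857 for Chrm1 and Chrm4. Without the 2 animals farthest from the median of the first gene, r was 0.774 for Chat and Slc18a3, 0.865 for Chrm1 and Chrm4, 0.724 for Chrm2 and Bche and -0.645 for Chrm1 and Chrm2. The closest links thus joined Chat, Slc18a3 and Ache, the receptors Chrm1 and Chrm4, and Chrm2 with Bche. Slc5a7 went with both Chat and Chrm2, and Ache with both Chat and Chrm1.

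Over the means of the 69 strains, Chrm1 and Chrm4 had r = 0.852 (rho = 0.851), Slc18a3 and Ache r = 0.847 (rho = 0.821), Chat and Ache r = 0.776 (rho = 0.742) and Chat and Slc18a3 r = 0.767 (rho = 0.765). Chrm1 and Chrm2 had r = -0.506 (rho = -0.477). The sign of r was the same as for the deviations in 38 of 45 pairs. Strain means of 2 or 3 animals carry the differences among animals along with those among strains, so that these values are not independent of the deviations. By group of strains, r of the deviations was 0.854 in HXB/BXH, 0.682 in FXLE/LEXF and 0.738 in the classic inbred strains for Chat and Slc18a3, and 0.860, 0.886 and 0.886 in the same order for Chrm1 and Chrm4. For Chat and Slc5a7 it was 0.818, 0.546 and 0.223, and for Slc18a3 and Slc5a7 0.717, 0.338 and 0.0750, and whether the groups differ was not tested.

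**Figure D3:**
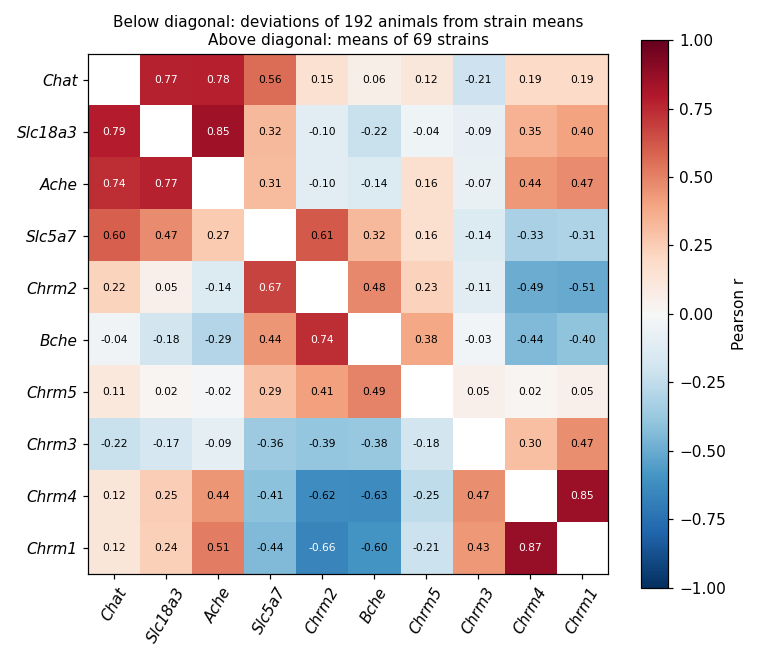
Pearson r for each pair of the 10 genes, over deviations of 192 animals from their strain means below the diagonal and over the means of 69 strains above it. The block of Chat, Slc18a3 and Ache (0.74 to 0.79 below the diagonal), the pair Chrm4 and Chrm1 (0.87) and the pair Chrm2 and Bche (0.74) stand out in red, and Chrm2 and Bche against Chrm1 and Chrm4 in blue.

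The spread between repeat libraries was set beside the spread between animals. Animal 1 of SHR/OlaIpcv has 12 libraries in this table and animal 4 has 6, sequenced in different batches by their titles, and the labels tie them together by strain and replicate number alone. Chrm1 ran over the 12 libraries from 10.17 to 11.13 on the log2 scale (SD 0.272), although the animal is the same by its label. Over both animals the SD between repeat libraries was 0.231 for Chrm1, where animals of a strain had an SD of 0.236. The ratio of the spreads was 0.980 for Chrm1, 0.990 for Chrm2, 1.04 for Chrm3, 0.961 for Slc5a7 and 0.908 for Chrm4, near the median of 1 over all genes. For Chat the repeat libraries spread by 0.158 and animals by 0.257, a ratio of 0.617, and for Slc18a3 by 0.225 and 0.354, a ratio of 0.636. These ratios lay at the 2.20th and the 2.71st percentile of all genes. Ratios of 0.856 for Ache, 0.887 for Bche and 0.826 for Chrm5 lay between.

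The same pairs were read over the repeat libraries, and no difference from the values over animals was tested. Over the 12 libraries of animal 1, Chrm1 and Chrm4 had r = 0.930 (rho = 0.923), and over the 6 of animal 4 r = 0.944. Chrm2 and Slc5a7 had r = 0.986 over the 12 and 0.815 over the 6, and Chrm2 and Bche 0.840 and 0.586. Chrm1 and Chrm2, at -0.660 over animals, had -0.574 over the 12 and 0.238 over the 6. Chrm1 and Chrm3, at 0.430 over animals, had -0.282 and -0.45. Chat and Slc5a7, at r = 0.600 over all animals and 0.223 over those of the classic inbred strains, had r = -0.0483 over the 12 libraries and -0.403 over the 6. Chat and Slc18a3, at 0.788 over animals, had 0.224 over the 12 and 0.623 over the 6. Slc18a3 and Slc5a7 had r = 0.473 over all animals, 0.0750 over those of the classic inbred strains and -0.452 and -0.916 over the libraries. Repeat libraries are not independent samples, they come from 2 animals of a single strain, and what differed among them was not tested.

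**Figure D4:**
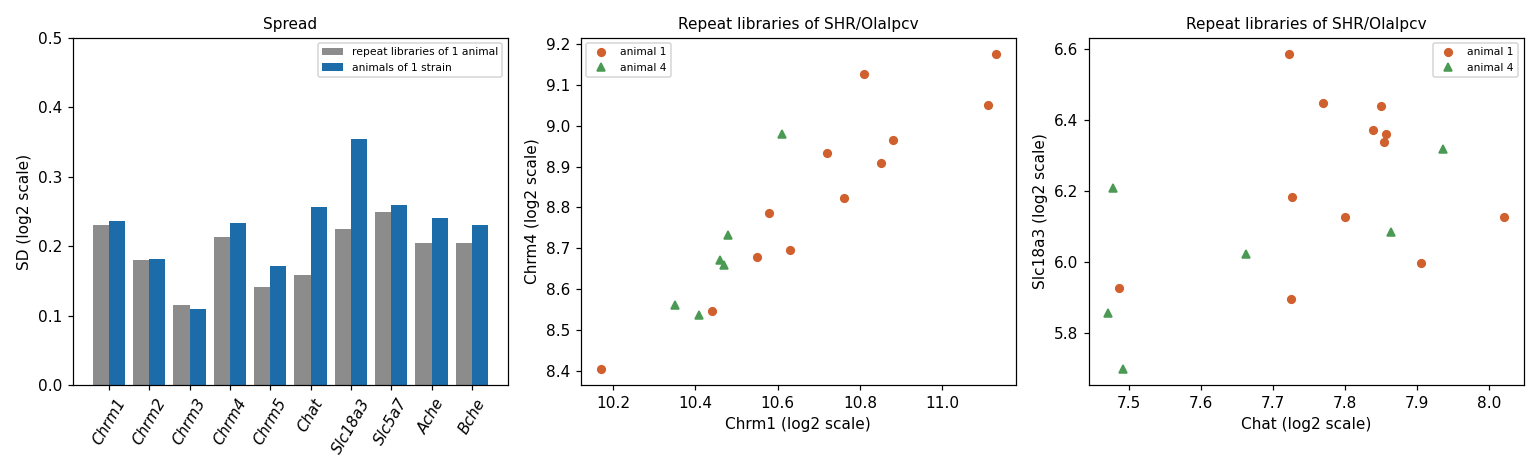
Left, SD on the log2 scale between repeat libraries of the same SHR/OlaIpcv animal (18 libraries of 2 animals, grey) and between animals of a strain (192 animals, blue), with bars starting at 0. Middle and right, the 12 libraries of animal 1 and the 6 of animal 4 for Chrm4 against Chrm1 (r = 0.930 and 0.944) and for Slc18a3 against Chat (r = 0.224 and 0.623). The ratio of the bars is 0.961 to 1.04 for Chrm1, Chrm2, Chrm3 and Slc5a7 and lowest for Chat (0.617) and Slc18a3 (0.636).

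Markers of brain regions and cell types were read on the same deviations, where 20.9% of all genes rose and 18.9% fell with Chat, and 33.4% rose and 31.1% fell with Chrm1. All 10 of 10 genes of hindbrain and cord (among them Hox genes and the glycine transporter Slc6a5) rose with Chat, with a median r of 0.594 against -0.0035 over all genes, from 0.435 for Slc6a2 to 0.670 for Slc6a5. With Chrm1 none of the 10 rose and 3 fell (median r = -0.161, against 0.015 over all genes). The mean of the hindbrain list had r of 0.690 with Chat, 0.673 with Slc18a3, 0.716 with Slc5a7 and 0.511 with Ache. Several of these markers, such as Hoxd3 at a mean of 3.29 and Hoxb2 at 3.45, lie near the bottom of the scale. Of the 10 cortical and hippocampal glutamatergic genes 8 rose and 2 fell with Chrm1 (median r = 0.546), up to 0.836 for the vesicular glutamate transporter Slc17a7, and 5 fell and none rose with Chat. The mean of that list had r of 0.716 with Chrm1, 0.641 with Chrm4, 0.574 with Chrm3, -0.559 with Chrm2 and -0.550 with Slc5a7. Striatal projection neuron genes rose with Chrm1 in 7 of 10 and fell in 1 (Tac1), and their mean had r of 0.520 with Chrm4. Oligodendrocyte genes had r of 0.649 with Chrm2, 0.594 with Slc5a7 and 0.514 with Bche as a list mean, and 7 of the 10 fell with Chrm1 while Mag (r = 0.623) and Cnp (r = 0.349) rose. The mean of the astrocyte list had r of 0.665 with Ache and 0.522 with Slc18a3. Its genes were split: 6 of 10 rose and 2 fell with Chat, from -0.361 for Slc1a3 to 0.613 for Agt. The mean of 4 Y-linked genes had r of -0.616 with Chrm1 and 0.605 with Bche. The part of regional or cellular makeup of the samples in the links among the members was not tested.

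**Figure D5:**
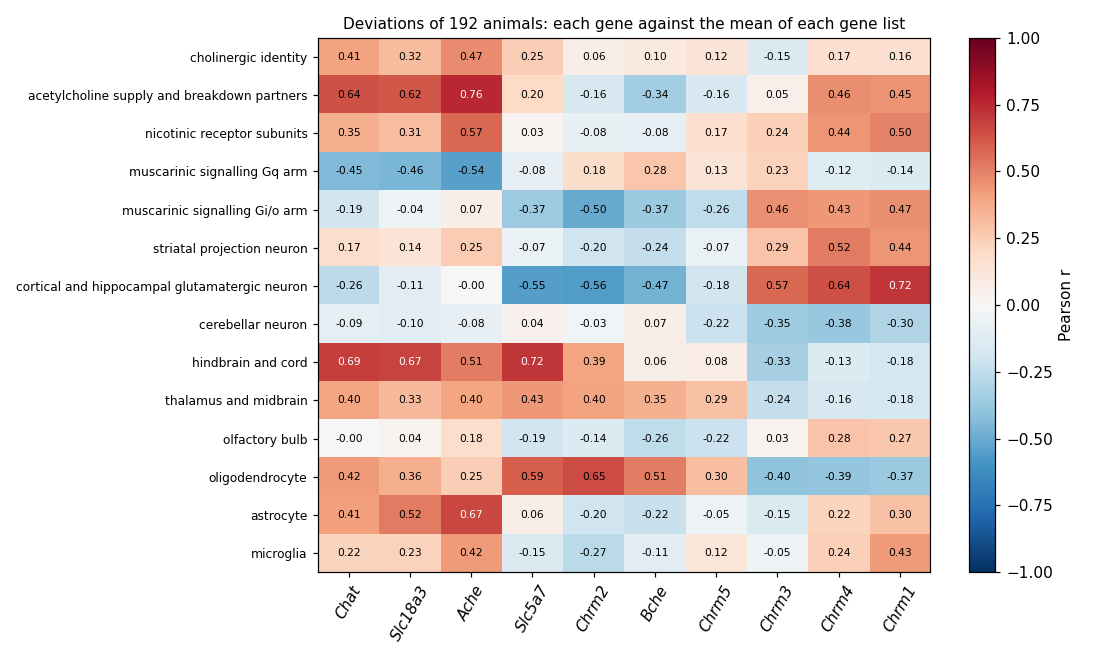
Pearson r between the deviations of each of the 10 genes (columns) and the mean of the standardized deviations of each gene list (rows) over 192 animals. Chat, Slc18a3 and Slc5a7 are reddest in the row of hindbrain and cord (0.67 to 0.72), Chrm1 and Chrm4 in the row of cortical and hippocampal glutamatergic neurons (0.72 and 0.64), and Chrm2 in that of oligodendrocytes (0.65).

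Genes of cholinergic identity, among them transcription factors, receptors and transporters, were read in the same way. Of 10 identity genes 4 rose with Chat, against 20.9% of all genes, and 1 fell, against 18.9% (median r = 0.146). The mean of the list had r of 0.405 with Chat and 0.471 with Ache. Among those that rose were the vesicle transporter-like gene Slc10a4 (r = 0.697, adjusted p = 1.64e-16, limma), the neurotrophin receptor Ngfr (0.414) and Slc17a8 (0.252), and Nkx2-1 (-0.287) fell. Lhx8 (0.0250) and Isl1 (0.105), which specify cholinergic neurons of the forebrain, did not pass. Of the same 10 genes 4 rose and 3 fell with Chrm1, against 33.4% and 31.1% of all genes (median r = 0.101). In the test of strain Nkx2-1, Tacr3 and Zic4 were called, 3 of 10 where 36.8% of all genes were, and Tacr3 had an R2 of 0.748.

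Partners of acetylcholine supply and breakdown, a list in which the receptor modulator Lynx1 was counted too, rose with Chat in 5 of 8. None of them fell, against 20.9% and 18.9% of all genes that rose and fell (median r = 0.318). Acly, ATP citrate lyase, which provides acetyl-CoA, had the highest r (0.760), followed by Prima1, the membrane anchor of acetylcholinesterase (0.543), the nicotinic modulator Lynx1 (0.459), the choline transporter-like Slc44a2 (0.391) and Colq, the collagen tail of acetylcholinesterase (0.244). Chkb (0.164), Slc44a1 (0.0167) and Chka (-0.133) did not pass with Chat. Of the same 8 genes 5 rose and 2 fell with Chrm1, against 33.4% and 31.1% of all genes (median r = 0.357). The list mean had r of 0.755 with Ache. For strain 5 of the 8 were called, where 36.8% of all genes were, among them Colq with an R2 of 0.831. Of 9 nicotinic receptor subunits 5 rose with Chat and 1, Chrna5, fell (r = -0.375), and 5 rose and none fell with Chrm1, where 20.9% and 18.9% of all genes rose and fell with Chat and 33.4% and 31.1% with Chrm1. Chrnb2 had r = 0.786 and Chrna4 r = 0.671 with Chrm1, the subunits of the main nicotinic receptor of the forebrain. Chrna3, Chrna5 and Chrnb3 were called for strain, 3 of 9, where 36.8% of all genes were.

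The signalling arms of the receptors are set beside the same shares of all genes, 20.9% and 18.9% for a rise and a fall with Chat and 33.4% and 31.1% with Chrm1. Of 12 genes of the Gq arm 1 (Gna11, r = 0.207) rose and 5 fell with Chat, and 4 rose and 6 fell with Chrm1, from -0.710 for the phospholipase Plcb4 to 0.749 for the G protein Gna11. Of 12 genes of the Gi/o arm 2 rose and 4 fell with Chat, and 7 rose and 4 fell with Chrm1, from -0.758 for Gnai3 to 0.791 for the adenylyl cyclase Adcy5, which is abundant in striatum. Strain was called for 6 of the 12 Gq genes and 4 of the 12 Gi/o genes, where 36.8% of all genes were called. Among the remaining lists, rises and falls with Chrm1 were 1 and 6 of 9 for cerebellar neurons, 2 and 4 of 10 for thalamus and midbrain, 5 and 0 of 10 for olfactory bulb, 7 and 2 of 10 for astrocytes, 7 and 3 of 10 for microglia, 1 and 3 of 10 for choroid plexus, 0 and 0 of 10 for liver, 3 and 0 of 7 for blood and 0 and 3 of 4 for Y-linked genes. With Chat they were 1 and 1, 6 and 1, 0 and 0, 6 and 2, 5 and 1, 0 and 0, 0 and 0, 2 and 0, and 0 and 1 in the same order, and 6 and 0 of 10 for oligodendrocytes and 5 and 0 of 10 for striatal projection neurons.

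The genes most like Chat and Chrm1 over animals were found among genes with a mean above the table's median of 8.32. For Chat they were Ahnak2 (r = 0.805), Acly (0.760), Nefh, the heavy neurofilament of large axons (0.726), Tppp3 (0.722) and Lgi3 (0.717). For Chrm1 they included the latrophilin Adgrl1 (0.930), the protocadherin Pcdh1 (0.923), the dendritic spine protein Synpo (0.916) and Slit1 (0.911). Over the 12 libraries of SHR/OlaIpcv animal 1, r with Chrm1 was 0.978 for Adgrl1 and 0.968 for Slit1, and r with Chat was 0.480 for Ahnak2 and 0.667 for Nefh. Over strain means the closest gene was Nkrf for Chrm2 (r = 0.800), Arhgap32 for Chrm3 (0.812), Spata2L for Chrm4 (0.866) and Hacd3 for Chrm5 (0.425). It was Ahnak2 for both Chat (0.785) and Slc18a3 (0.837), Slc6a5 for Slc5a7 (0.768), Sdc3 for Ache (0.865) and Riok2 for Bche (0.737). Chrm5 thus had no close companion by this measure.

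The transcript table separates RefSeq isoforms of the members. Each of Chrm4, Chrm5, Chat, Slc18a3, Slc5a7 and Bche had 1 transcript there, whose deviations followed the gene value with r of 0.983 or more. Chrm3 had 5 transcripts and Ache had 4. Of the 18 transcripts 3 differed among strains by limma, where 13.4% of all transcripts did: 2 predicted isoforms of Chrm3 (R2 of 0.502 and 0.487, adjusted p = 0.0176 and 0.0368) and 1 predicted isoform of Ache (R2 = 0.540, adjusted p = 0.00232). The main Ache transcript, at a mean of 10.41, had an R2 of 0.369 (adjusted p = 0.602), while the isoform that was called stood at 6.79. With Chat the called isoform had r = 0.526 and the main form r = 0.725. The main Chrm3 transcript (mean 9.90) had an R2 of 0.471 (adjusted p = 0.108) and an r of 0.471 with Chrm1, and the called isoforms had r of 0.0776 and 0.0276. The Chrm1 transcript ranged from 1.07 to 10.85 over animals with an r of 0.461 to the gene value.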

How the data were processed

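RNA from rat brain was measured in the samples of the labels, and the 10 genes and the gene lists were chosen with earlier results of these data known. For the deposited v7.1 tables of RefSeq genes and transcripts, of reconstructed genes and of v6 Ensembl genes, the submitters' processing notes name cutadapt 1.9.1, Bowtie2, HISAT2, StringTie, RSEM and DESeq2, and the genome build and the order of steps are not given in the sources used here. The values deposited by the authors are read as log2, as the regularized log after removal of 1 unwanted factor that the methods describe for another version of the tables. Counts were not analysed here, so that depth is unknown. The deposited v5 reconstruction, on rn6, gave positions, in base pairs (another unit than expression) per the file headers.

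From the tables, 73 spike-in rows were left out, libraries were averaged per animal, and each gene was fitted with limma 3.58.1 in R 4.3.3: a moderated F-test of strain, contrasts of 2 strains with the spread of all animals, and the slope on Chat or Chrm1 given strain. Benjamini-Hochberg adjustment ran over all genes at 0.05, and the fits were tested on simulated data. Mixtures of 1 to 3 clusters came from mclust 6.1.1. In 26 of 232 samples the title gives another batch than the batch characteristic, which was used. Named genes besides the members are the 5 most like Chat and Chrm1 over animals, the 1 most like each member over strain means, and the highest, the lowest and up to 3 called genes of a list. Other list genes are named after their values were seen. A few genes that the rule names are not reported here. The series describes replicates as biological. Alternatives were batch, the replicate block, animals left out, scaling, a filter on low values, doubted libraries, single libraries and other tables.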

Additional observations from a re-analysis of the deposited data

How the results depend on the processing

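Chrm2 with Chat, at r = 0.222, was called in 11 of 14 alternatives and ran from -0.0102 without replicate 2 to 0.426 without replicate 3, and Chrm3 with Chat was called in 8 of 13. Over the alternatives r ran from 0.680 to 0.862 for Chat and Slc18a3, from 0.693 to 0.762 for Chat and Ache, from 0.396 to 0.740 for Chat and Slc5a7 and from 0.792 to 0.908 for Chrm1 and Chrm4, and these 4 kept their calls. The count of members that differed among strains did depend on the processing. With the batch characteristic as covariate 7 members and 11959 genes were called over all strains and 5 members within HXB/BXH (32.1% of all genes), and with the batch of the title 6 (46.2%) and 5 (26.5%). Leaving out a replicate number in turn gave 0 to 2 members and 3116 to 7521 genes over all strains and 0 to 2 members within HXB/BXH (8.2% to 19.1% of all genes). It gave 0 to 1 within FXLE/LEXF (Chrm1, with 0.475% to 8.54% of all genes), 3 to 5 with Chat and 0 to 1 with more than 1 cluster. Only genes above the table median gave 1 member (of 6 measured) and 3636 genes (34.9%) over all strains, with fewer genes tested. They gave 1 member within HXB/BXH (14.7% of these genes) and 5 with Chrm1. The v7.1 reconstructed table (8 members) gave 2 members (Chrm1 and Chrm4) and 17333 genes of 84239 (20.6%) over all strains and 0 members within HXB/BXH (12.7% of all genes). Chrm1 and Ache are split there, and their entry with the higher mean was used. With Chat 6 members were called (among them Chrm1, Chrm4 and Chrm5), and 5 with Chrm1. For SHR/OlaIpcv minus WKY/NCrl 1 was, Chrm1 at -1.18 (adjusted p = 0.03, limma), against 0.277 to 1 in the other alternatives. For this and every other alternative in this section, shares of all genes beside calls with Chat or Chrm1 were not computed. Nor were those beside contrasts and clusters. In the main fits 20.9% of all genes were called positive and 18.9% negative with Chat, and 33.4% and 31.1% with Chrm1. The v6 table (9 members) gave 3 members over all strains (Chrm3, Chrm4 and Bche, with 31.7% of all genes called), 1 within HXB/BXH (16.3%), 3 within FXLE/LEXF (Chrm2, Chat and Slc5a7, with 15.5% of all genes called) and 3 with Chat. Without HXB17/Ipcv 2, chosen after seeing the data, 1 member was called within HXB/BXH (18.7% of all genes). The causes were not tested.

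With the replicate number as a block 2 members and 7963 genes (38.2%) were called over all strains, and it changed no call of a member. There 5 members were called with Chat and 8 with Chrm1, and the shares of all genes beside these counts were not computed. Same-numbered animals of different strains had a mean correlation of deviations of 0.0238, against -0.0119 for other numbers, so that the numbers are taken as names and not as pairs. With batch as covariate the contrasts of SHR/OlaIpcv could not be estimated. F344/NCrl 2 and SHRSP/A3NCrl 1 are not in the RefSeq table, so that only LEW/Crl and LE/Stm were left out as doubted, and F344/Stm minus LE/Stm has no value then or without replicate 2. The fits rest on 2 or 3 animals a strain, which limits what any strain mean can show.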
